A study of Mus musculus with 8 samples.

Results

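Integrins are cell surface receptors made of 1 alpha and 1 beta chain, and laminins are 3-chain proteins of basement membranes, and 36 of their genes were followed here through mouse skin. They were taken by name alone: genes of the table named as a numbered integrin alpha or beta chain or a numbered laminin alpha, beta or gamma chain, with Itgad, Itgae, Itgal, Itgam, Itgav and Itgax added. The whole table held 21885 genes after rows without a name and repeated names were left out. Bulk RNA-seq had been made from the skin of mice in 2 groups of 4 libraries. MC903 (calcipotriol), a vitamin D analogue used to raise dermatitis-like inflammation, was given in both groups. The first group received MC903 alone and is titled a control by the submitters; the second received MC903 plus phytic acid, the inositol phosphate stored in plant seeds. Neither group was untreated skin, so values here compare phytic acid with its absence under MC903. The labels as given here name no strain, age, dose or time, and do not say that the libraries of a group came from separate mice, so p-values measure the spread between these libraries, which may be technical.

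In the epidermis, integrin alpha 6 beta 4 and the laminin that holds the chains Lama3 and Lamb3 join in the hemidesmosome, the rivet that ties the keratin network of basal keratinocytes to the basement membrane. Other integrins of keratinocytes bind laminin, collagen or fibronectin from focal adhesions or release active TGF-beta from its latent form, and skeletal muscle fibres are anchored by integrin alpha 7 and the laminin alpha 2 chain. On leukocytes, the beta 2 integrins, integrin alpha 4 and integrin alpha E beta 7 serve in adhesion to vessel walls, matrix and epithelium. Pairing is set by the proteins, and RNA levels of single chains do not give the amount of any heterodimer or trimer.

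The libraries held 31676934 to 42997271 reads. Krt5, a keratin of basal keratinocytes, was at 709 to 971 FPKM with MC903 and 726 to 898 with phytic acid, so each library carried epidermal RNA. FPKM is a fragment count scaled for exon length and library size. MC903 replicate 3 had summed hair follicle markers of 1687 FPKM against 9.83 to 33 in the other 7 libraries. Among the 33 tested members, MC903 replicates 3 and 4 were each the highest library of their group for 15, and replicate 3 with phytic acid was the lowest of its group for 20. Of 12165 genes tested, 3134 (25.8%) passed, 1722 (14.2%) higher with phytic acid and 1412 (11.6%) lower.

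Levels of the 36 genes spanned 4 orders of magnitude, as the plot of all members by library shows. The beta 1 chain Itgb1, partner of most matrix-binding alpha chains, was the highest in both groups, with 92.6, 88.9, 76.5 and 129 FPKM under MC903 (replicates 1 to 4 in order, here and below) and 95, 85.8, 89.8 and 109 with phytic acid. Itga6 came next in both groups. By mean level, Itga3 stood in place 7 with MC903 and place 14 with phytic acid, and Itgb2 in places 6 and 3. At the low end stood Itgad, Lama1 and Itga10, which did not reach 1 FPKM in 4 libraries and were not tested.

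**Figure D1:**
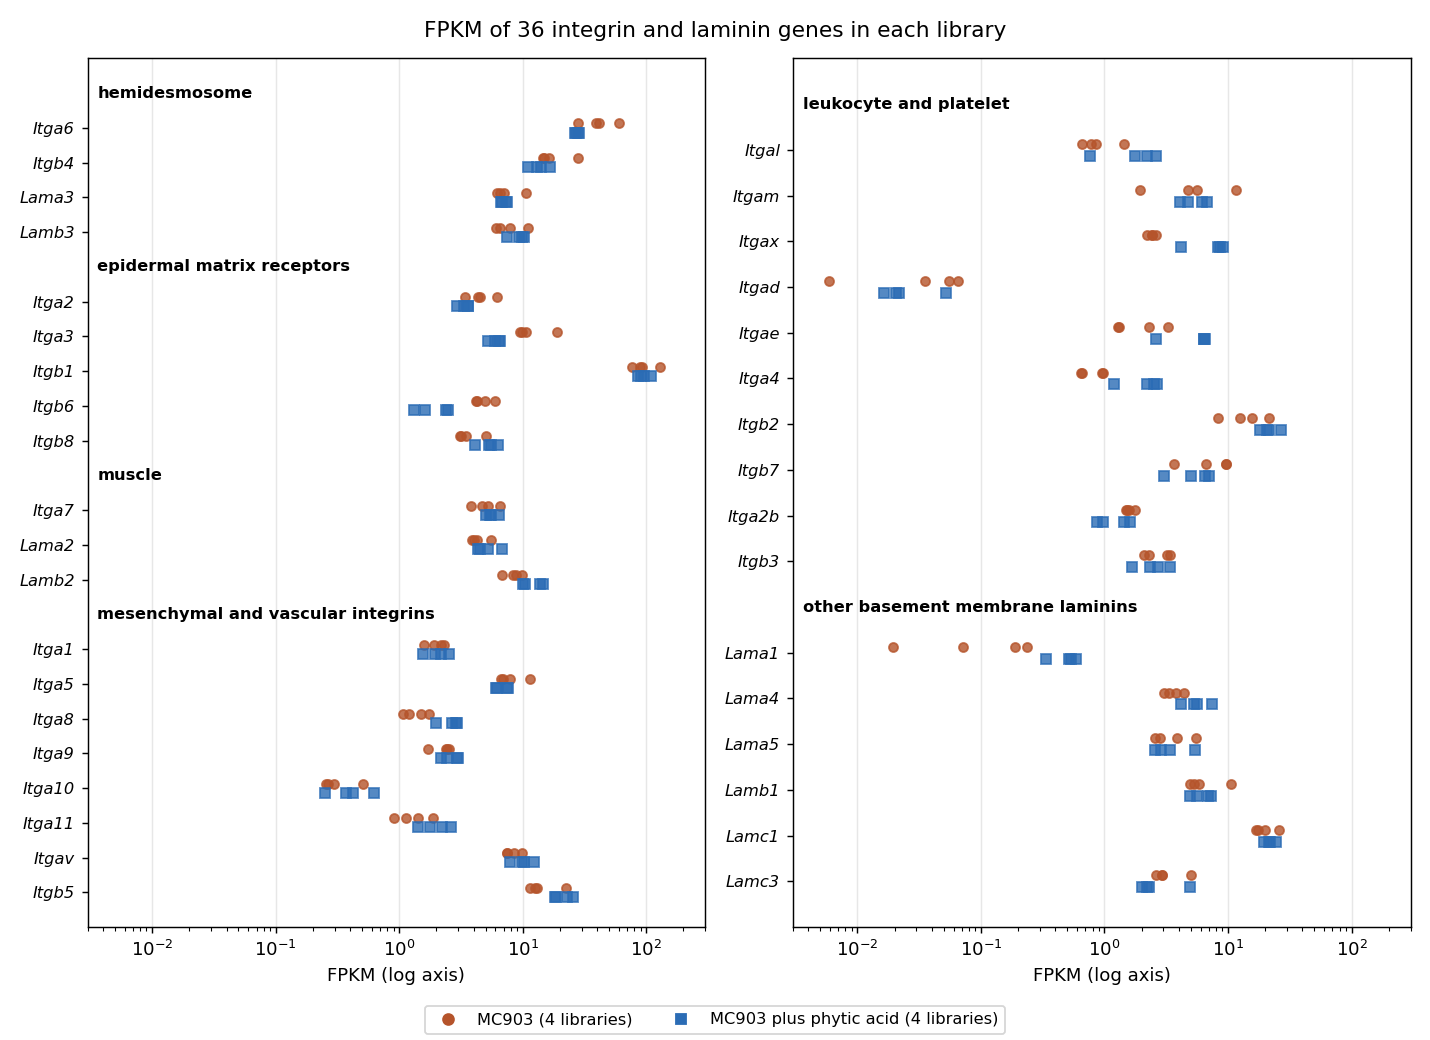
FPKM of the 36 integrin and laminin genes on a log axis, 1 point for each library, 4 with MC903 (circles) and 4 with MC903 plus phytic acid (squares), sorted by role. Itgb1 lies near 100 FPKM in both groups and Itgad below 0.1 FPKM, and the points of Itga3 and Itgb6 with phytic acid lie below those with MC903.

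Of the 33 tested members, 8 passed (limma on log2(FPKM + 1), Benjamini-Hochberg adjusted p under 0.05 over all genes tested). That is 24.2%, near the 25.8% of all genes tested, so the count itself says nothing particular about the members. Itgax, Itgae, Itga4, Itga8, Lama4 and Lamb2 rose with phytic acid, and Itga3 and Itgb6 fell. Itga4 stayed below 1 FPKM in all 4 MC903 libraries, so it was tested only through its phytic acid libraries. The median log2 difference of the 33 was 0.13, against 0.05 over all genes tested. No library of one group reached into the range of the other for 4 members that were higher (Lamb2, Itgax, Itga4 and Itga8) and 2 that were lower (Itga3 and Itgb6), so for 6 in all, beside 27.3% of all genes tested (14.3% higher and 13% lower). The 2 that fell are epithelial chains and 3 of the 6 that rose are leukocyte chains, as the plot of differences by role shows. Differences here and below are MC903 plus phytic acid minus MC903 on the log2(FPKM + 1) scale, which understates the change of genes near 1 FPKM. When libraries were set level on 4 basal keratinocyte markers, the median of all genes moved from 0.05 to -0.12, and Itga8, Lama4 and Lamb2 no longer passed. These 4 markers did not move together. Krt15 rose (difference 1.99), Cdh3 fell (-0.90), and Trp63 and Pdpn did not pass (-0.15 and -0.25). This levelling, here and below, is therefore not a steady measure of epidermal content.

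**Figure D2:**
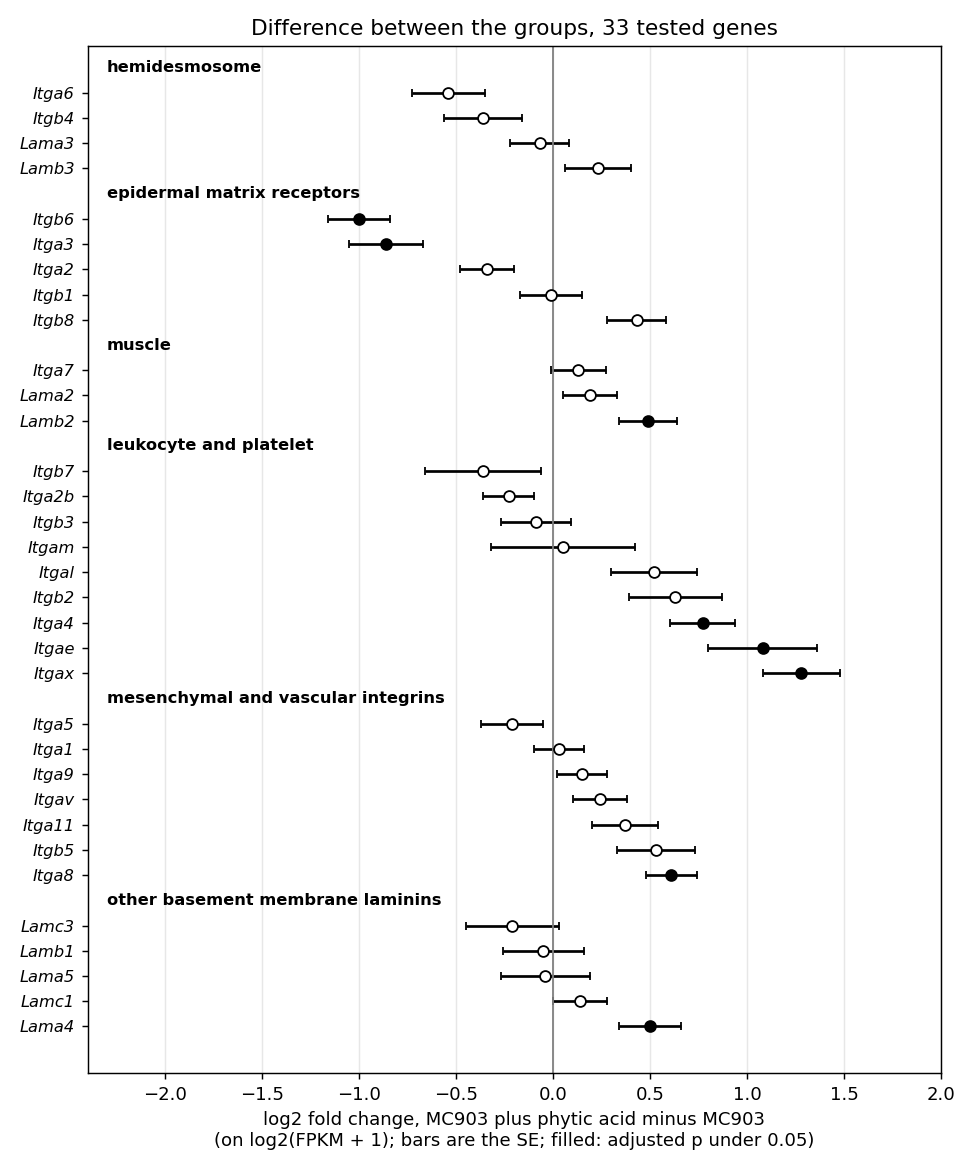
Log2 difference, MC903 plus phytic acid minus MC903, of the 33 tested members by role, with the SE as bars and filled points for adjusted p under 0.05. Filled points lie left of 0 for Itgb6 and Itga3 and right of 0 for Lamb2, Itga4, Itgae, Itgax, Itga8 and Lama4.

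Among 4 genes of the hemidesmosome, none passed (limma, Benjamini-Hochberg), and their median difference was -0.22. At an unadjusted p under 0.05 limma took 1 of the 4, Itga6, beside 38.4% of all genes tested, and limma with voom on recovered reads passed none of the 3 it could test. Itga6, which pairs with beta 4 in hemidesmosomes and with beta 1 elsewhere, was at 39, 41.3, 27.9 and 59.7 FPKM with MC903 and 28.4, 26.9, 28.2 and 26.6 with phytic acid. MC903 replicates 1, 2 and 4 lay above every phytic acid library, and replicate 3 lay among those with phytic acid. Its log2 difference was -0.54 ± 0.19 (SE) with an adjusted p of 0.0615 (limma), and it passed without MC903 replicate 3 (adjusted p = 0.00597, limma), with library weights (0.014) and after levelling on basal markers (0.038). Library weights gave MC903 replicate 3 the lowest weight, 0.355, so that fit is not separate from the one without it. Itgb4, whose long cytoplasmic tail binds the plakins, was at 16.3, 14.9, 14.5 and 27.8 FPKM with MC903 and 14.1, 16.5, 13.1 and 11 with phytic acid, a log2 difference of -0.36 ± 0.20 (SE; adjusted p = 0.219, limma). MC903 replicate 4 was the highest library for both. The ratio of Itga6 to Itgb4 overlapped between the groups, at 1.93 to 2.77 with MC903 and 1.63 to 2.42 with phytic acid.

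Neither Lama3 nor Lamb3 passed. Lama3, an alpha chain of epidermal laminin, was at 6.24, 6.56, 7.11 and 10.7 FPKM with MC903 and 6.82, 7.5, 6.64 and 7.36 with phytic acid, a log2 difference of -0.07 ± 0.15 (SE; adjusted p = 0.748, limma). Lamb3, the beta chain beside it, was at 6.49, 7.9, 6.06 and 11 FPKM with MC903 and 9.26, 9.91, 10.3 and 7.48 with phytic acid, a difference of 0.23 ± 0.17 (SE; adjusted p = 0.347, limma). Both sets overlapped, and MC903 replicate 4 held the highest value of each chain. The ratio of Lama3 to Lamb3 overlapped too, at 0.83 to 1.17 with MC903 and 0.642 to 0.983 with phytic acid. Values of members that did not pass, here and below, were picked for display after they were seen, apart from those of Itga6 and Itgb4.

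**Figure D3:**
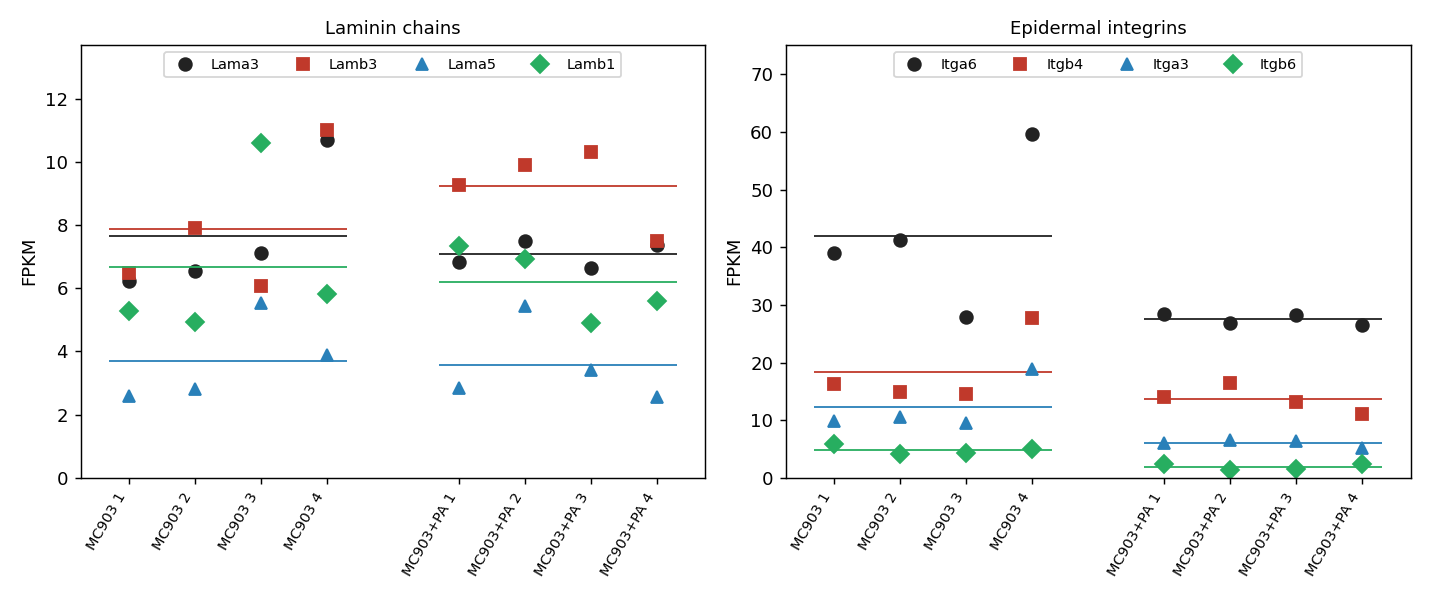
FPKM in each of the 8 libraries, with a line at each group mean: left, the laminin chains Lama3, Lamb3, Lama5 and Lamb1, and right, the epidermal integrin chains Itga6, Itgb4, Itga3 and Itgb6. The values of these 4 laminin chains overlap between the groups, and Itga3 and Itgb6 are lower in all 4 libraries with phytic acid.

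Among 5 further matrix receptors of the epidermis, 2 fell with phytic acid, none rose, and the median difference was -0.34. Itgb6, the beta 6 chain that pairs with alpha v, is restricted to epithelia, is induced in wounded and inflamed skin and activates latent TGF-beta. It was at 5.92, 4.19, 4.23 and 4.98 FPKM with MC903 and 2.4, 1.31, 1.61 and 2.46 with phytic acid. No library with phytic acid reached the lowest library with MC903. Its mean went from 4.83 ± 0.813 to 1.94 ± 0.57 FPKM (SD, n = 4), 2.49-fold lower, with a log2 difference of -1.0 ± 0.16 (SE) and an adjusted p of 0.00245 (limma, Benjamini-Hochberg). It lies on chromosome 2, 60598292 to 60722643 (mm10, minus strand), its values rest on 358 to 1334 reads, and it passed in all 18 alternatives that tested it.

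Itga3, the alpha 3 chain that with beta 1 binds epidermal laminin from focal adhesions, was at 9.85, 10.6, 9.58 and 18.9 FPKM with MC903 and 5.99, 6.51, 6.46 and 5.24 with phytic acid. The groups did not overlap, and MC903 replicate 4 stood far above the other 3. The mean went from 12.2 ± 4.48 to 6.05 ± 0.587 FPKM (SD, n = 4), 2.02-fold lower, a log2 difference of -0.86 ± 0.19 (SE) with an adjusted p of 0.0114 (limma, Benjamini-Hochberg). It lies on chromosome 11, 95044474 to 95076801 (minus strand), and it passed in all 19 alternatives, the one without MC903 replicate 4 included. The ratio of Itga3 to Itga6 was 0.253, 0.258, 0.344 and 0.317 with MC903 and 0.211, 0.243, 0.229 and 0.197 with phytic acid, without overlap.

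The RefSeq promoters of both genes are shown because both genes fell in every alternative that tested them. Each is the 300 bases from 250 before to 50 after the outermost RefSeq start site (GRCm38.p6, the assembly that mm10 names), read 5′ to 3′ on the minus strand, for Itga3 at chr11:95076665-95076964 and for Itgb6 at chr2:60722554-60722853.
Itga3: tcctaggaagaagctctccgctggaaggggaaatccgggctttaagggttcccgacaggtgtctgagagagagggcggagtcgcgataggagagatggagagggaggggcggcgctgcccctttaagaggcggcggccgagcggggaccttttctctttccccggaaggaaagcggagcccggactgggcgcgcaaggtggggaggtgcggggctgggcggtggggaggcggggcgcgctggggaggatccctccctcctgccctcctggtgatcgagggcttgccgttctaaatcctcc
Itgb6: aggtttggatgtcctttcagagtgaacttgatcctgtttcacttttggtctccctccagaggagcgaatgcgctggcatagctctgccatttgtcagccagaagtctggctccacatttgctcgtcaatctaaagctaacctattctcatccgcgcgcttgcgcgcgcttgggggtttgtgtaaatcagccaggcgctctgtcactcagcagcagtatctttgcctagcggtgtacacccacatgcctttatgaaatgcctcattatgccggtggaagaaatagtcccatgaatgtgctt
Neither window holds TGANTCA, the letters that AP-1 factors bind, or GAGGAA, the core that factors of the PU.1 kind bind, on either strand, so no letters stand in capitals. A second RefSeq start lies inside each gene, and that of Itga3 holds 1 match to each motif while that of Itgb6 holds 1 to GAGGAA. Over all 32851 mouse promoters of this length, 7.81% hold TGANTCA and 28.3% hold GAGGAA.

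The other 3 epidermal receptors did not pass. Itgb1 had a log2 difference of -0.01 ± 0.16 (SE; adjusted p = 0.982, limma). Itga2, the collagen receptor chain of basal keratinocytes, ranged from 3.43 to 6.2 FPKM with MC903 and from 2.96 to 3.62 with phytic acid (difference -0.34 ± 0.14 SE, adjusted p = 0.109, limma). Itgb8, the other alpha v partner that activates TGF-beta, was at 3.47, 3.13, 5.02 and 3.17 FPKM with MC903 and 6.34, 5.34, 4.07 and 5.52 with phytic acid, so its mean lay in the opposite direction to that of Itgb6 (difference 0.43 ± 0.15 SE, adjusted p = 0.067, limma). It passed in 5 of the alternatives, with the lowest adjusted p, 0.00739 (limma), under library weights. As a share of the 4 beta chains Itgb3, Itgb5, Itgb6 and Itgb8, all partners of alpha v, Itgb6 took 24.5, 18.6, 12.1 and 21.8% with MC903 and 6.36, 4.11, 6.33 and 8.35% with phytic acid, without overlap. The share of Itgb8 was 13.9 to 14.4% and 16 to 18.8%, without overlap. Itgb6 is part of the whole, so its fall by itself raises the shares of the other chains. The Itgb8 share is therefore no separate evidence of a rise, and the FPKM values of Itgb8 overlapped.

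**Figure D4:**
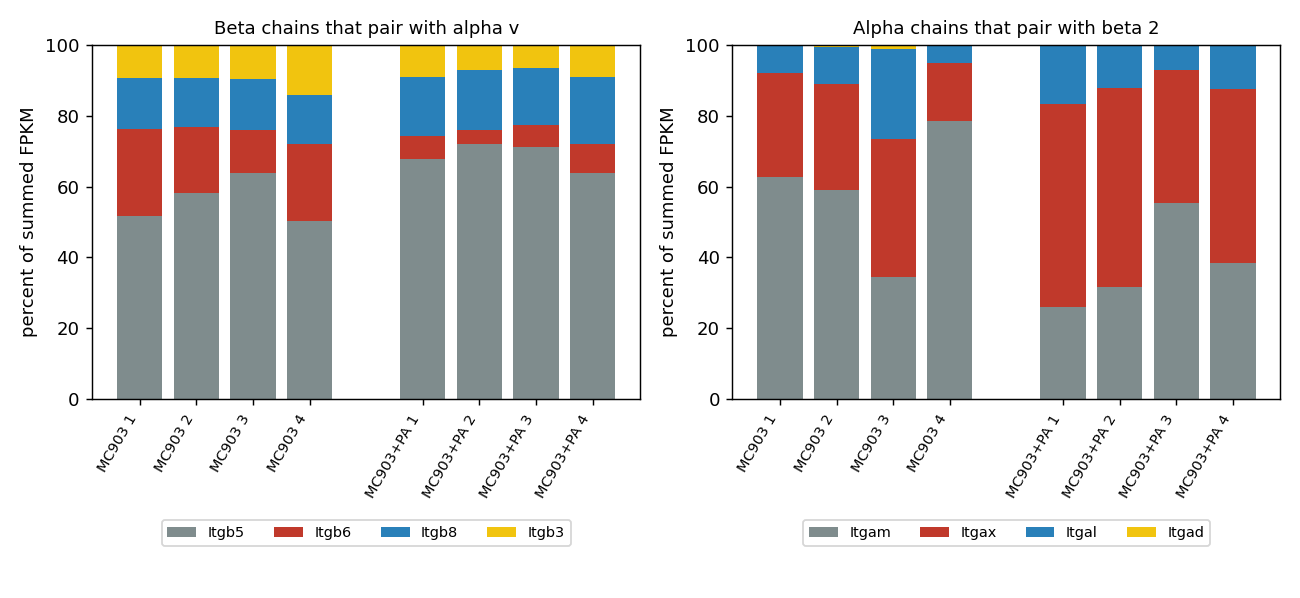
Percent of summed FPKM held by each chain in each library, for the beta chains that pair with alpha v other than beta 1 (left) and the alpha chains that pair with beta 2 (right). Itgb6 makes up 12.1 to 24.5% of its set with MC903 and 4.11 to 8.35% with phytic acid, and Itgad is barely visible.

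Wound keratinocyte markers moved beside these 2 falls. Of 7 such markers, 5 fell, with a median difference of -3.67, and their summed level was 3492 to 7442 FPKM with MC903 and 768 to 1245 with phytic acid. Of 8 basal keratinocyte markers, 2 passed upwards and 2 downwards; the median was -0.13. The part of keratinocyte state or number in Itga3 and Itgb6 was not tested. In bulk skin, fewer cells of a type and less RNA in each cell cannot be told apart.

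Of the 3 members named for muscle, 1 rose, none fell, and the median difference was 0.19. Lamb2, the laminin beta 2 chain of the neuromuscular junction, muscle, vessel wall and nerve, was at 8.3, 6.73, 9.86 and 8.8 FPKM with MC903 and 13.9, 14.7, 10.03 and 10.4 with phytic acid. Replicate 3 of MC903, at 9.86, nearly met the 2 lowest phytic acid libraries, and the groups did not overlap. Its mean went from 8.42 ± 1.3 to 12.3 ± 2.39 FPKM (SD, n = 4), 1.46-fold higher, a log2 difference of 0.49 ± 0.15 (SE) with an adjusted p of 0.0409 (limma, Benjamini-Hochberg). The gene lies on chromosome 9, 108479736 to 108490530 (plus strand). It did not pass in 9 of 19 alternatives, where the adjusted p rose to at most 0.211 (limma), among them those without MC903 replicate 1, 2 or 4 and without phytic acid replicate 1 or 2.

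Itga7, the laminin receptor chain of muscle fibres, was at 4.72, 3.83, 5.19 and 6.56 FPKM with MC903 and 6.38, 5, 5.55 and 5.41 with phytic acid (difference 0.13 ± 0.14 SE, adjusted p = 0.526, limma). Lama2, the alpha chain of muscle and nerve laminin whose loss gives congenital muscular dystrophy, was at 4.05, 3.86, 5.56 and 4.24 FPKM with MC903 and 5.25, 6.73, 4.53 and 4.37 with phytic acid (difference 0.19 ± 0.14 SE, adjusted p = 0.361, limma). Both overlapped. Skeletal muscle RNA itself stood higher with phytic acid: 12 of 15 sarcomere and muscle markers rose, with a median of 1.01 and summed levels of 4026 to 4560.4 FPKM against 8409 to 9908. The muscle chains thus lay below the marker list, with Lamb2 at 0.49, Lama2 at 0.19 and Itga7 at 0.13. The ratio of Lamb2 to Lamb1 was 1.57, 1.36, 0.927 and 1.51 with MC903 and 1.89, 2.12, 2.04 and 1.85 with phytic acid, without overlap. Fibroblast markers (2 of 6 rose, none fell), smooth muscle and pericyte markers (2 of 4) and Schwann cell markers (2 of 5, or 1 without phytic acid replicate 1 or 4) moved the same way, and the part of any of these cells in the Lamb2 result was not tested.

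Among the leukocyte and platelet integrins, 3 of the 9 tested rose with phytic acid, none fell, and the median difference was 0.52. Of these 3, Itga4 was tested only through its phytic acid libraries. Itgax, the CD11c chain of dendritic cells and some macrophages, was at 2.6, 2.43, 2.2 and 2.41 FPKM with MC903, a narrow band, and 9.04, 8.33, 4.14 and 8.69 with phytic acid. Every library with phytic acid lay above every library with MC903, and replicate 3 was the lowest of the phytic acid group. Its mean went from 2.41 ± 0.164 to 7.55 ± 2.3 FPKM (SD, n = 4), 3.14-fold higher, a log2 difference of 1.28 ± 0.20 (SE) with an adjusted p of 0.00222 (limma, Benjamini-Hochberg). It lies on chromosome 7, 128129547 to 128150657 (plus strand), rests on 374 to 1770 reads and passed in all 18 alternatives that tested it.

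Itga4, the alpha 4 chain by which lymphocytes and monocytes bind VCAM-1 and fibronectin, was at 0.973, 0.643, 0.948 and 0.66 FPKM with MC903 and 2.64, 2.5, 1.19 and 2.22 with phytic acid. The groups did not overlap, and replicate 3 was again the lowest of the phytic acid libraries. Mean levels were 0.806 ± 0.179 and 2.14 ± 0.654 FPKM (SD, n = 4), a log2 difference of 0.77 ± 0.17 (SE) with an adjusted p of 0.00993 (limma, Benjamini-Hochberg), and it passed in all 18 alternatives. It met the filter only through the phytic acid libraries, the group where it is high. It also passed with no filter set. Itga4 lies on chromosome 2, 79255426 to 79333123 (plus strand), and 8.04% of its exon bases are shared with Cerkl on the opposite strand, whose reads cannot be told apart if the counting took no account of strand.

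Itgae, the CD103 chain of skin-resident T cells and some dendritic cells, which binds E-cadherin, was at 1.29, 2.31, 3.27 and 1.3 FPKM with MC903 and 6.43, 6.43, 2.61 and 6.52 with phytic acid. The groups overlapped: phytic acid replicate 3 lay below MC903 replicate 3. The mean went from 2.04 ± 0.947 to 5.5 ± 1.93 FPKM (SD, n = 4), 2.69-fold higher, a log2 difference of 1.08 ± 0.28 (SE) with an adjusted p of 0.0207 (limma, Benjamini-Hochberg). It lies on chromosome 11, 73090583 to 73147446 (plus strand). Without MC903 replicate 1 or 4, or without phytic acid replicate 1, 2 or 4, the adjusted p lay between 0.0558 and 0.0617 (limma), so the call needed each of these 5 libraries.

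The other leukocyte chains did not pass. Itgb2, the common beta 2 chain, ranged from 8.23 to 21.3 FPKM with MC903 and from 18.3 to 26.9 with phytic acid (difference 0.63 ± 0.24 SE, adjusted p = 0.0823, limma). Itgal, the LFA-1 alpha chain of lymphocytes, was at 0.658 to 1.43 FPKM and 0.768 to 2.59 (difference 0.52 ± 0.22 SE, adjusted p = 0.108, limma). Itgb2 passed without MC903 replicate 4 (adjusted p = 0.0259, limma) and Itgal without phytic acid replicate 3 (0.013).

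Itgam, the CD11b chain of neutrophils, monocytes and macrophages, was at 5.56, 4.78, 1.95 and 11.6 FPKM with MC903 and 4.12, 4.72, 6.12 and 6.8 with phytic acid. The phytic acid libraries all lay inside the MC903 range, whose ends were replicates 3 and 4, and its difference was 0.05 ± 0.37 (SE; adjusted p = 0.933, limma). Its level is uncertain because 68.7% of its exon bases are shared with a same-strand gene model, Gm49368, which the table lists at 0. Itgb7, partner of alpha 4 and alpha E, was at 6.63, 9.72, 3.63 and 9.72 FPKM with MC903 and 6.56, 5.06, 3.03 and 7.05 with phytic acid (difference -0.36 ± 0.30 SE, adjusted p = 0.406, limma), so the beta chain did not follow its 2 alpha chains past the threshold. The ratio of Itgae to Itgb7 was 0.194, 0.238, 0.901 and 0.133 with MC903 and 0.981, 1.27, 0.861 and 0.925 with phytic acid, where MC903 replicate 3 reached the range with phytic acid and the other 3 did not.

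Itga2b and Itgb3, the chains of the platelet fibrinogen receptor, ranged from 1.5 to 1.78 and 2.09 to 3.4 FPKM with MC903 and from 0.866 to 1.62 and 1.66 to 3.41 with phytic acid (differences -0.23 ± 0.13 SE and -0.09 ± 0.18 SE, adjusted p = 0.216 and 0.728, limma). The 5 platelet markers, Itga2b itself among them, summed to 25.4 to 129 FPKM with MC903 and 42.7 to 85.5 with phytic acid. Nearly all of the sum came from Pf4 (23.8 to 124 and 41.1 to 84.4), which overlapped between the groups. Of the other markers, Gp1bb was listed at 0 in all libraries and Gp9 reached 0.243 FPKM. Itgad, the alpha D chain of some macrophages, was at 0.00593 to 0.0648 FPKM and 0.0163 to 0.0521, from 1 to 11 reads in a library, too few to compare.

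As shares of the 4 alpha chains that pair with beta 2, Itgax held 29.3, 29.9, 39 and 16.3% with MC903 and 57.3, 56, 37.4 and 49.1% with phytic acid, and Itgam 62.8, 58.9, 34.5 and 78.4% with MC903 and 26.1, 31.7, 55.4 and 38.4% with phytic acid. Itgax was the larger of the pair in 3 of 4 phytic acid libraries and in 1 of 4 MC903 libraries, replicate 3. These shares rest on the Itgam level, which is uncertain as said above. The 4 alpha chains together stood to Itgb2 at 0.569 to 0.693 and 0.604 to 0.736, which overlapped. Itgam, Itgax and Itgad lie in a row on chromosome 7, with 11.1 kb and 3.72 kb between them and 1 other protein-coding gene between the first pair.

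The promoters of Itgax and Itgam are set side by side because these near neighbours had different values, with the level of Itgam uncertain. Each is the RefSeq window of 300 bases described above, on the plus strand, at chr7:128129300-128129599 for Itgax and chr7:128062390-128062689 for Itgam, with matches to TGANTCA or GAGGAA on either strand in capitals.
Itgax: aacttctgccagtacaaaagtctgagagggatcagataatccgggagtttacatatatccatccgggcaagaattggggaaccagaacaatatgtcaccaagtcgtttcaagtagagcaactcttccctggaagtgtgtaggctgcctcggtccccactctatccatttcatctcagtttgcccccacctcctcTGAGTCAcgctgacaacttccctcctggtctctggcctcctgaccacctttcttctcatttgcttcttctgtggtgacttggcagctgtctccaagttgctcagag
Itgam: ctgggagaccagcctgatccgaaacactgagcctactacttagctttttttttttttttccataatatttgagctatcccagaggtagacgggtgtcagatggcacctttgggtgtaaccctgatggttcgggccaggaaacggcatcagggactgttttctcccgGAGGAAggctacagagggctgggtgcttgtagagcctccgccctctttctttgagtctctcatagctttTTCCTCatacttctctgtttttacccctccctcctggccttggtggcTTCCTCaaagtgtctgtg
Itgax has 1 match to TGANTCA, whose first base is 56 before the start site, and none to GAGGAA. Itgam has none to TGANTCA and 3 to GAGGAA, at 84 and 15 before and 32 after the start. RefSeq gave 26 promoters for 23 of the 36 members, and of these 3 hold TGANTCA (11.5%, against 7.81% of all promoters) and 14 hold GAGGAA (53.8%, against 28.3%). A match shows only that the letters are there.

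Markers of the cells that carry these chains also moved. Langerhans and dendritic cell markers, summed, were at 228, 328, 346 and 137 FPKM with MC903 and 1237, 1158, 641 and 1358 with phytic acid, and 7 of 7 tested rose. Most of this sum came from the MHC class II presentation genes Cd74, H2-Aa, H2-Ab1 and H2-Eb1. Of the 11 listed, Flt3, Zbtb46, Xcr1 and Clec9a lay under the filter. Among these, only Clec9a did not overlap between the groups, and Zbtb46 had means of 0.761 and 0.864 FPKM. With no filter set, 10 of the 11 rose. T cell markers were at 21.4, 36.3, 36.4 and 26.4 FPKM with MC903 and 61.2, 43.3, 31.1 and 68 with phytic acid, with 4 of 6 tested higher. That count was 2 without MC903 replicate 1 or 4 or without phytic acid replicate 1, 2 or 4. The largest part of the T cell sum in each library was Thy1, at 15.2 to 26.4 FPKM with MC903 and 17.3 to 34.3 with phytic acid. Thy1 did not pass (adjusted p = 0.468, limma). Phytic acid replicate 3, the lowest phytic acid library for Itgax, Itgae and Itga4, was the lowest phytic acid library for both lists. Macrophage and monocyte markers rose for 4 of 9 and fell for none; 2 rose without MC903 replicate 2 or 4 or without phytic acid replicate 1 or 4, and 1 after levelling on basal markers. Neutrophil markers were at 229, 177, 123 and 732 FPKM with MC903 and 14.4, 18.5, 129 and 147 with phytic acid, with 3 of 5 tested lower. None of them passed without phytic acid replicate 1 or 2, and 1 passed without MC903 replicate 1, 2 or 4. Mmp8, 1 of the 3, stayed at 0.142 to 0.575 FPKM in the phytic acid libraries, below the filter. It met the filter only through the MC903 libraries, the group where it is high, and did not pass with no filter set. Most of the neutrophil sum came from S100a8 and S100a9, at 312 and 396 FPKM in MC903 replicate 4, and the sum mostly follows these genes. Ly6g reached at most 0.284 FPKM, and S100a9, Csf3r and Elane were not called lower. MC903 replicate 4 held the highest sum and the highest Itgam. Whether cell number accounts for any of these integrin values was not tested.

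**Figure D5:**
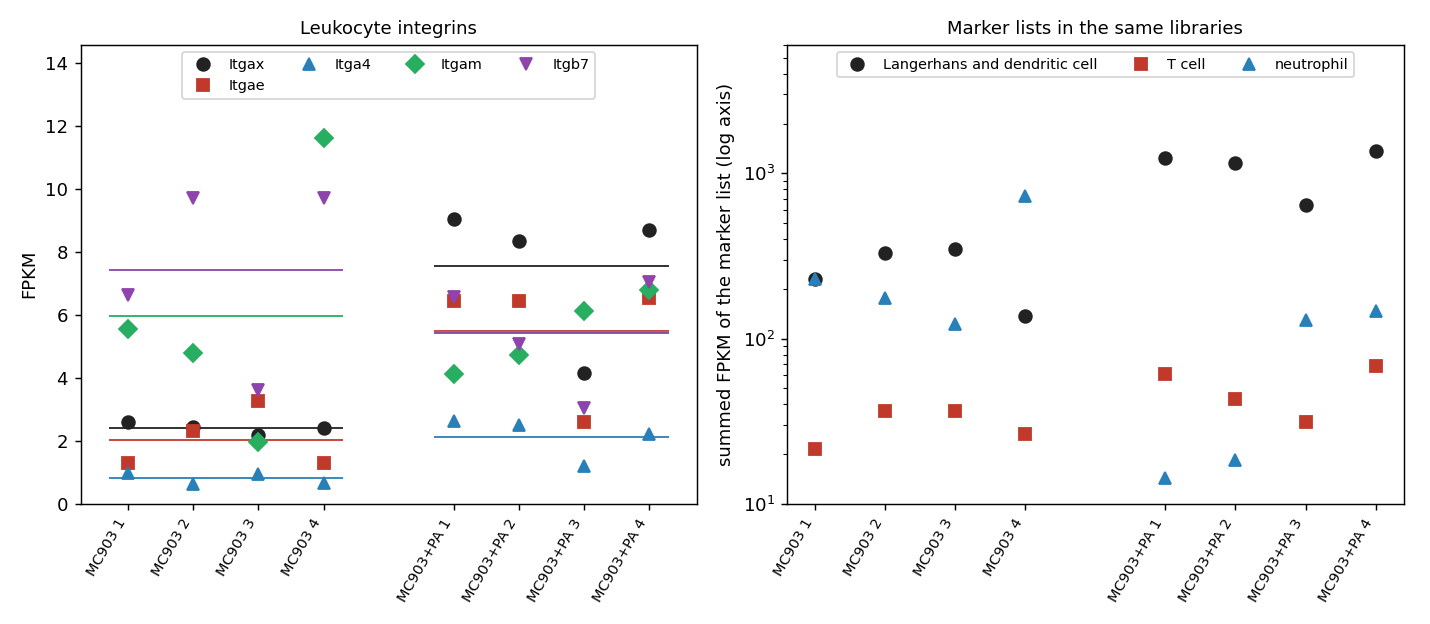
Left, FPKM of Itgax, Itgae, Itga4, Itgam and Itgb7 in each library with a line at each group mean; right, summed FPKM of Langerhans and dendritic cell, T cell and neutrophil markers in the same libraries on a log axis. Itgax lies at 2.2 to 2.6 with MC903 and 4.14 to 9.04 with phytic acid, and replicate 3 is the lowest phytic acid library for Itgax, Itgae and Itga4 and for the dendritic and T cell sums. Thy1 is the largest part of the T cell sum, and S100a8 and S100a9 make up most of the neutrophil sum. Cd74, H2-Aa, H2-Ab1 and H2-Eb1 make up most of the Langerhans and dendritic cell sum.

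Of the 8 integrins of mesenchymal and vascular cells, 7 were tested, 1 rose, none fell, and the median difference was 0.24. Itga8, the alpha 8 chain of smooth muscle, the arrector pili muscle of hair included, which binds nephronectin, was at 1.5, 1.07, 1.75 and 1.2 FPKM with MC903 and 2.94, 2.87, 1.99 and 2.68 with phytic acid. The groups did not overlap, with MC903 replicate 3 and phytic acid replicate 3 nearest each other. The mean went from 1.38 ± 0.304 to 2.62 ± 0.434 FPKM (SD, n = 4), 1.91-fold higher, a log2 difference of 0.61 ± 0.13 (SE) with an adjusted p of 0.0101 (limma, Benjamini-Hochberg). It lies on chromosome 2, 12106632 to 12301922 (minus strand), and the call was lost in 1 of 18 alternatives, the levelling on basal markers (adjusted p = 0.071, limma). Smooth muscle and pericyte markers were at 76.4 to 112 FPKM summed with MC903 and 125 to 149 with phytic acid, and their part in this result was not tested.

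Itgb5, the vitronectin-binding partner of alpha v, was at 12.5, 13.1, 22.3 and 11.5 FPKM with MC903 and 25.5, 23, 18.1 and 18.7 with phytic acid (difference 0.53 ± 0.20 SE, adjusted p = 0.0784, limma). The overlap came from MC903 replicate 3, the library with the hair follicle markers, and without it the difference was 0.73 with an adjusted p of 0.00363 (limma). Itgav, the alpha v chain, was at 7.44 to 9.82 FPKM and 7.84 to 12.3 (difference 0.24 ± 0.14 SE, adjusted p = 0.238, limma), and Itga5, the fibronectin receptor chain, at 6.66 to 11.4 and 6.03 to 7.64 (difference -0.21 ± 0.16 SE, adjusted p = 0.366, limma). The collagen receptor chain of fibroblasts, Itga11, had a difference of 0.37 ± 0.17 (SE), Itga1 one of 0.03 ± 0.13 (SE) and Itga9 one of 0.15 ± 0.13 (SE), with adjusted p of 0.132, 0.892 and 0.402 (limma). Itga10, a cartilage collagen receptor chain, was at 0.256 to 0.512 FPKM with MC903 and 0.251 to 0.625 with phytic acid, and 33.5% of its exon bases are shared with the gene model Gm42957 on the same strand.

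Of the 6 other basement membrane laminins, 5 were tested, 1 rose, none fell, and the median difference was -0.04. Lama4, the alpha 4 chain of vessel walls, fat and muscle, was at 3.35, 3.05, 3.8 and 4.37 FPKM with MC903 and 7.47, 5.3, 4.16 and 5.65 with phytic acid. Treated replicate 3 lay below MC903 replicate 4, and the other 3 phytic acid libraries lay above all of MC903. Its mean went from 3.64 ± 0.574 to 5.65 ± 1.38 FPKM (SD, n = 4), 1.55-fold higher, a log2 difference of 0.50 ± 0.16 (SE) with an adjusted p of 0.0415 (limma, Benjamini-Hochberg). It lies on chromosome 10, 38965515 to 39110188 (plus strand) and was lost in 9 of 18 alternatives (adjusted p up to 0.19, limma), among them those without MC903 replicate 1 or 2 and without phytic acid replicate 1, 2 or 4. Endothelial markers rose for 1 of 7, with summed levels of 48.9 to 64.4 FPKM and 57.1 to 62.9, and no endothelial marker passed in 11 alternatives. Adipocyte markers rose for 1 of 4 tested, Adipoq, with a median difference of 1.66 and summed levels of 77.6 to 156 FPKM and 161 to 345, without overlap. The skeletal muscle markers given above also stood higher, and the part of fat, muscle or vessel cells in the Lama4 result was not tested.

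As a share of the 5 laminin alpha chains, Lama1 to Lama5, Lama4 held 20.5, 18.5, 17.1 and 18.8% with MC903 and 32.9, 20.7, 21.6 and 27.6% with phytic acid, where MC903 replicate 1 and phytic acid replicate 2 almost met. Lama5, the alpha 5 chain of epidermal and vascular basement membrane, was at 2.58 to 5.53 FPKM and 2.56 to 5.44 (difference -0.04 ± 0.23 SE, adjusted p = 0.91, limma). Lamb1, the common beta 1 chain, was at 4.94 to 10.6 and 4.91 to 7.35 (difference -0.05 ± 0.21 SE, adjusted p = 0.887, limma), and Lamc3 at 2.62 to 5 and 2.02 to 4.89 (difference -0.21 ± 0.24 SE, adjusted p = 0.559, limma). MC903 replicate 3 was the highest library for Lamb1 and Lamc3. Lamc1, the gamma 1 chain of most basement membrane laminins, was at 16.7 to 25.9 FPKM with MC903 and 19.7 to 24.3 with phytic acid (log2 difference 0.14 ± 0.14 SE, adjusted p = 0.499, limma). Lama1, the alpha chain of embryonic basement membrane, was at 0.0717, 0.19, 0.236 and 0.0193 FPKM with MC903 and 0.335, 0.585, 0.521 and 0.54 with phytic acid, from 7 to 217 reads. Its groups did not overlap, it lay under the filter, and it passed when no filter was set.

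The genes that work with these chains were read from lists of partners, where 16 of 81 tested (19.8%) rose and 7 (8.64%) fell, beside 14.2% and 11.6% of all genes tested. Col4a6 and Sgcd, among those that rose, met the filter only through their phytic acid libraries. Among the partners of the hemidesmosome (7 tested), Dst, whose skin form links beta 4 to keratins, rose from 12.2 ± 0.742 to 19.5 ± 2.78 FPKM (SD, n = 4), and Krt14, the keratin partner of Krt5, fell from 5275 ± 1619 to 1357 ± 254, with log2 differences of 0.63 ± 0.11 (SE) and -1.91 ± 0.28 (SE) and adjusted p of 0.0038 and 0.0017 (limma). The other 5 of these partners did not pass. Basement membrane partners (10 tested) held 2 that rose, the collagen IV chains Col4a6 (1.26 ± 0.19 SE, adjusted p = 0.00175, limma) and Col4a5 (0.98 ± 0.21 SE, adjusted p = 0.0105, limma), and 1 that fell, Col18a1 (-0.90 ± 0.16 SE, adjusted p = 0.00425, limma), the source of endostatin. Col4a6 stayed at 0.221 to 0.926 FPKM in the MC903 libraries, below the filter. It passed in all 18 alternatives that tested it, no filter included. Of 18 cytoplasmic adhesion proteins, Itgb1bp1, which binds the beta 1 tail and restrains activation, rose by 0.46 and the kinase Src fell, at -0.85 (adjusted p = 0.0264 and 0.00782, limma). Src passed in all 19 alternatives, while Itgb1bp1 was lost in 8 (adjusted p up to 0.251, limma), among them those without MC903 replicate 1 or 2 and without phytic acid replicate 3 or 4. Ilk was listed at 0.00968 to 0.0575 and 0.00951 to 0.0358 FPKM, and 89.7% of its exon bases overlap genes on the opposite strand, so its level could not be read.

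Matrix ligands of integrins (17 tested) held 5 that rose and 2 that fell, with 3 that rose without MC903 replicate 1 or 4 or without phytic acid replicate 2. Npnt (nephronectin), the ligand of integrin alpha 8, rose from 2.65 ± 0.861 to 6.12 ± 0.528 FPKM, the fibronectin gene Fn1 from 11.4 ± 1.76 to 26.4 ± 8.77, and Ccn1, a matrix ligand of alpha v integrins, from 16.1 ± 1.42 to 28.3 ± 7.55 (SD, n = 4). Their log2 differences were 0.99 ± 0.17 (SE), 1.09 ± 0.24 (SE) and 0.74 ± 0.17 (SE), with adjusted p of 0.00312, 0.0117 and 0.0137 (limma). The 2 that fell, named after their values were seen, were the wound matrix genes Spp1 (-1.52 ± 0.37 SE, adjusted p = 0.0158, limma) and Tnc (-2.3 ± 0.57 SE, adjusted p = 0.0174, limma), and Tnc did not pass without phytic acid replicate 2 (0.0511). Of 7 ligands of leukocyte integrins, none rose and 2 fell: F11r (JAM-A), a ligand of LFA-1, from 46.5 ± 2.62 to 32.9 ± 2.87 FPKM, and Cdh1 (E-cadherin), the ligand of CD103, from 110.2 ± 8.09 to 85.1 ± 8.89 (SD, n = 4; adjusted p = 0.00559 and 0.03, limma). F11r passed in all 19 alternatives. Cdh1 was lost in 7 (adjusted p up to 0.0902, limma), among them TPM scaling and those without MC903 replicate 1 or 4 and without phytic acid replicate 1, 3 or 4.

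In the list for the dystroglycan complex, the other laminin receptor of muscle, 6 of 13 rose and none fell. After levelling on basal markers, 3 rose. Beside the complex and its associated proteins, the list held Itgb1bp2 (melusin), a muscle protein that binds the beta 1 tail instead. Itgb1bp2, 1 of the 6, rose from 2.94 ± 0.626 to 13.1 ± 3.79 FPKM (SD, n = 4). Its log2 difference was 1.81 ± 0.20 (SE) with an adjusted p of 0.000569 (limma). Sgcd (delta-sarcoglycan) and Utrn (utrophin) had differences of 0.65 ± 0.10 (SE) and 0.72 ± 0.14 (SE), with adjusted p of 0.00198 and 0.00674 (limma). Sgcd stayed at 0.398 to 0.554 FPKM in the MC903 libraries, below the filter, which it met only through the phytic acid libraries. It passed in all 18 alternatives that tested it, no filter included. Of 9 leukocyte adhesion proteins, 1 rose: Apbb1ip (RIAM), which brings talin to integrins, by 0.46 ± 0.13 (SE; adjusted p = 0.0249, limma). It was lost in 5 of 18 alternatives (adjusted p up to 0.257, limma), where basal markers were levelled or where the second MC903 library or phytic acid replicate 1, 2 or 4 was left out.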

How the data were processed

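The authors deposited 1 table of FPKM for 8 mouse skin libraries, which the submitters' processing notes link with cutadapt, HISAT2, TopHat2, DESeq and mm10, without roles. For the annotation and the use of strand, nothing is given in the sources used here. Since FPKM divides by a library's total, large changes in abundant genes move the rest. Rows without a name (51) were left out, and for 21 repeated names the highest row was kept. Genes with at least 1 FPKM in at least 4 libraries (12165) were tested as log2(FPKM + 1) with limma 3.58.1 in R 4.3.3 (lmFit, eBayes with trend), two-sided, with Benjamini-Hochberg adjustment and a call at 0.05. The fit was tested on simulated data. FPKM times exon length (GENCODE vM21) gave whole reads within 0.05 for 97.4% of 17980 genes, hence the library totals; 72.2% to 74.9% of values of 1 to 8 reads were even, so single reads may not be independent. The reads of Itga6, Itga7 and Lama2 did not come out whole and are not given. Coordinates are from that annotation, counted from 1. 1 gene that the naming rule takes is not reported here. Members and lists were chosen with earlier results of these data known. Members that passed, or in a role with none the 2 of highest mean, were named with every library's value, and partners by up to 3 smallest p in each list. Alternatives changed the pseudocount, filter, scaling, weights, block, count model (voom on reads) and each library.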

Additional observations from a re-analysis of the deposited data

Results flagged for a closer look

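Of 72 groups of 4 libraries (36 genes in 2 groups), 11 had 1 library far from the other 3 by Dixon's ratio. The cut-off used flags about 5% of groups when values are normal and independent. These groups share the same 8 libraries, and the share flagged over all genes was not worked out. The count is therefore not a result about the members. In MC903 replicate 4, Itgb4 stood at 27.8 FPKM and Itga3 at 18.9, each above the other 3 libraries. In MC903 replicate 3, the library with the hair follicle markers, Itgb5 stood at 22.3, Lamb1 at 10.6, Lamc3 at 5 and Itga10 at 0.512 FPKM, all above their group. Itga9 stood low in MC903 replicate 2, at 1.7 FPKM. With phytic acid, replicate 3 was low for Itgax, at 4.14 FPKM, and for Itgae, at 2.61, and replicate 2 was high for Lamc3, at 4.89, and for Itgad, at 0.0521. Itga3 and Itgax passed without these libraries too. Itgae passed without phytic acid replicate 3, and Itgb5 passed once MC903 replicate 3 was left out.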

How the results depend on the processing

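Of the 8 members that passed, Itga3, Itgb6, Itgax and Itga4 passed in every alternative that tested them. Itga4 met the main filter only through its phytic acid libraries. With a mean FPKM of at least 5 required, 16 members were tested and 2 passed, 1 higher and 1 lower. Library weights gave 14 members (10 higher, 4 lower) and 4796 genes in all. The weights were 4.2 for MC903 replicate 1 and 0.355 for MC903 replicate 3, against 0.717 to 1.2 for the rest. That fit thus leans on MC903 replicate 1 and is not separate from the one without MC903 replicate 3. Levelling on basal markers left 3 members higher and split all genes into 708 higher and 1667 lower, against 1722 and 1412; among the partners, Dst, Itgb1bp1 and Apbb1ip were then lost, and 3 basement membrane and 3 cytoplasmic partners fell in place of 1 each. A replicate block gave 6 members and 2046 genes in all, with Itgb2 gained and Itgae, Lamb2 and Lama4 lost; same-numbered libraries did not deviate together (correlations -0.28, -0.10, -0.29 and 0.23), so the numbers were not taken as pairs. Leaving out 1 library gave 5 (the first library of either group or the second with phytic acid left out) to 13 members (without MC903 replicate 3), 3 to 9 higher, 2 to 4 lower, and 2013 (without MC903 replicate 1) to 3979 genes in all (without MC903 replicate 3). Reversals came only in members that had not passed. With library weights the log2 difference became 0.03 for Lama3 and Itgb3, 0.12 for Lama5 and Lamb1 and -0.09 for Itgam. With TPM scaling it was 0.02 for Itgb1, and with quantile normalization 0.03 for Itgb1, -0.01 for Itgam and -0.08 for Itga1. Median-of-ratios scaling gave -0.01 for Itga1. Levelling on basal markers gave -0.04 for Itga7 and Lamc1, -0.12 for Itgam, -0.14 for Itga1 and -0.02 for Itga9. Leaving out 1 library gave -0.15 to 0.08 for Lama3, -0.11 to 0.14 for Itgb1, -0.30 to 0.40 for Itgam, -0.21 to 0.03 for Itgb3, -0.05 to 0.11 for Itga1, -0.22 to 0.13 for Lama5 and -0.15 to 0.17 for Lamb1. The cause was not tested. Depth did not allow a comparison of Itgad, with 1 to 11 reads.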
